A study of Mus musculus with 12 samples.

Results

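The comparison described here is that of wild-type mouse embryonic fibroblasts given tunicamycin with untreated wild-type fibroblasts. The miRNAs followed were the mouse miRNAs that the scanner software called detected on both arrays of at least 1 of the 3 wild-type groups, which gave 168 of the 176 miRNAs tested over the whole series and of the 611 mouse miRNAs on the array. The series covers 12 single-colour miRNA arrays of fibroblasts with and without ATF6b, a membrane-anchored transcription factor of the endoplasmic reticulum, and asks in its design text which miRNAs respond to 12 h of tunicamycin in a way that depends on ATF6b. The 6 wild-type arrays, of cells labelled ATF6bWT on a C57BL/6 background, fall into 3 groups of 2: untreated, 2 ug/mL tunicamycin for 12 h and 2 ug/mL tunicamycin for 24 h. The design text calls the 2 arrays of a group independent experiments. The labels name no vehicle for the untreated cells and do not say how many embryos or cell lines were used, or whether untreated and treated cells came from the same line. The untreated arrays lay on 1 slide and the treated arrays on another, scanned months later, and in no value against untreated cells can treatment and slide be told apart.

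A miRNA is a short RNA that guides the silencing complex to messenger RNAs, mainly through its seed, the bases 2 to 8 from its 5′ end. Both arms of a hairpin precursor can give a miRNA, and the arm that is usually less abundant carries a star in the array's names. Many miRNAs come in families with a shared seed, and neighbouring hairpins are often cut from a single transcript. Tunicamycin blocks N-linked glycosylation in the endoplasmic reticulum, unfolded proteins build up there, and the sensors PERK, IRE1 and ATF6 start the unfolded protein response. That response slows translation, splices Xbp1 mRNA and induces chaperones, and in long stress it arrests the cell cycle and turns on CHOP. PERK and CHOP induce some miRNAs, and the nuclease of IRE1 has been reported to cut some miRNA precursors.

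Signal is given here as a percent of each array's reference level, the 75th percentile of the 93 miRNAs that every one of the 12 arrays detected. That reference signal was 568 and 539 on the untreated arrays, 617 and 477 at 12 h, and 582 and 257 at 24 h. Replicate 2 at 24 h was thus the dimmest wild-type array. It also had the fewest detected mouse miRNAs, 119 against 155 to 189 on the other 5. Markers of fibroblasts were present. miR-21, an abundant miRNA of fibroblasts, took 24.4% to 28.6% of the summed signal, and 13 of the 16 fibroblast and mesenchymal markers on the array were among the 168 miRNAs. None of the 8 epithelial, 7 blood or 5 endothelial and liver markers was detected on any wild-type array. Of 15 pluripotent cell markers 1, miR-290-5p, was detected on 1 array, without passing the detection rule. Of 7 muscle markers 1 was detected, miR-206, and of 8 neural markers 2, miR-129-3p and miR-129-5p.

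Mature sequences were taken from RefSeq (GRCm38.p6), which held a match for 99 of the 168 miRNAs. Those shown are the ones the results turn on, with the seed in capitals. The first set holds measured miRNAs of seed families that rose together under tunicamycin. miR-20a, miR-20b, miR-106b and miR-93 share a seed, as do miR-92a and miR-25, miR-19a and miR-19b, and the 4 miRNAs from miR-15a to miR-322.

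miR-20a: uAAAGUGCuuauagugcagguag
miR-20b: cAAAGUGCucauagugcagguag
miR-106b: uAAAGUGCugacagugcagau
miR-93: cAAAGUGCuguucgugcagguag
miR-92a: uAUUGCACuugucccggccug
miR-25: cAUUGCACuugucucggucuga
miR-19a: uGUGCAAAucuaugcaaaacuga
miR-19b: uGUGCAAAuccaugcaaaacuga
miR-15a: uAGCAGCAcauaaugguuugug
miR-15b: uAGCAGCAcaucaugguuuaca
miR-16: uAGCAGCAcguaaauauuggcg
miR-322: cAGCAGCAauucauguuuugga

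The second set holds pairs with a common seed whose members had unequal measured differences under tunicamycin. The difference between partners was not tested. From position 1 at the 5′ end, miR-27a and miR-27b differ by C19U, miR-103 and miR-107 by G22C, and miR-99a and miR-100 by U16A. The sequences of miR-148a and miR-152 differ by C9U, U10G and U20G, and that of miR-152 is 21 bases long against 22.

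miR-27a: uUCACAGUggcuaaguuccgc
miR-27b: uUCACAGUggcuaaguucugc
miR-103: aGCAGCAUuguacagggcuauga
miR-107: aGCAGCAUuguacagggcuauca
miR-99a: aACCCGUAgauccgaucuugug
miR-100: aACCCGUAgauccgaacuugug
miR-148a: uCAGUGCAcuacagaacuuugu
miR-152: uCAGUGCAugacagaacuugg

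The last set shows miRNAs with large changes and no such partner here, apart from the star strands of the miR-24 hairpins, which share a seed.

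miR-7a: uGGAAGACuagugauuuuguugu
miR-196a: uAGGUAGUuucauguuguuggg
miR-31: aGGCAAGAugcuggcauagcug
miR-31*: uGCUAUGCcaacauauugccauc
miR-24-1*: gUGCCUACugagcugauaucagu
miR-24-2*: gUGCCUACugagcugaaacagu
miR-410: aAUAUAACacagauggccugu
miR-431: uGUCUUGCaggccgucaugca
miR-433: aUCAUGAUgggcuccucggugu
miR-1224: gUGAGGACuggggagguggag

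Tunicamycin went with a broad shift in the miRNAs of these cells. Taking the mean of 12 h and 24 h against untreated cells, 81 miRNAs were called at an adjusted p under 0.05, 28 higher and 53 lower. All of them were among the 168, and they made up 46.0% of the 176 tested, 15.9% higher and 30.1% lower. The calls come from limma (moderated linear model over all 12 arrays, Benjamini-Hochberg adjustment over the 176 miRNAs), as do all adjusted p-values given below. The median difference over the 168 miRNAs was -0.09 on the log2 scale. A rise of at least 1 on the log2 scale was seen for 18 of the called miRNAs and a fall of at least 1 for 22. In 80 of the 81 all 4 treated arrays lay on the same side of both untreated arrays, and the exception was miR-93. Over all 168 miRNAs this held for 59.5%, and the calls rest on these same arrays. The array carries 2 to 4 probes per miRNA, and in 80 of the 81 every probe moved the same way, the exception being miR-376a*. The split was 28 higher and 30 lower over the 103 miRNAs detected on all 6 wild-type arrays, and 43 and 40 with the brightest probe of each miRNA, an alternative added after seeing the data. The number called was 31 with the scanner software's total signal per miRNA in place of the probe sums, 15 with arrays scaled over all mouse miRNAs and 0 by limma with the authors' deposited log2 values, where 27 had an unadjusted p under 0.05. Bulk RNA cannot tell less of a miRNA per cell from fewer cells that hold it, and a level here is relative to the array's other miRNAs.

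**Figure D1:**
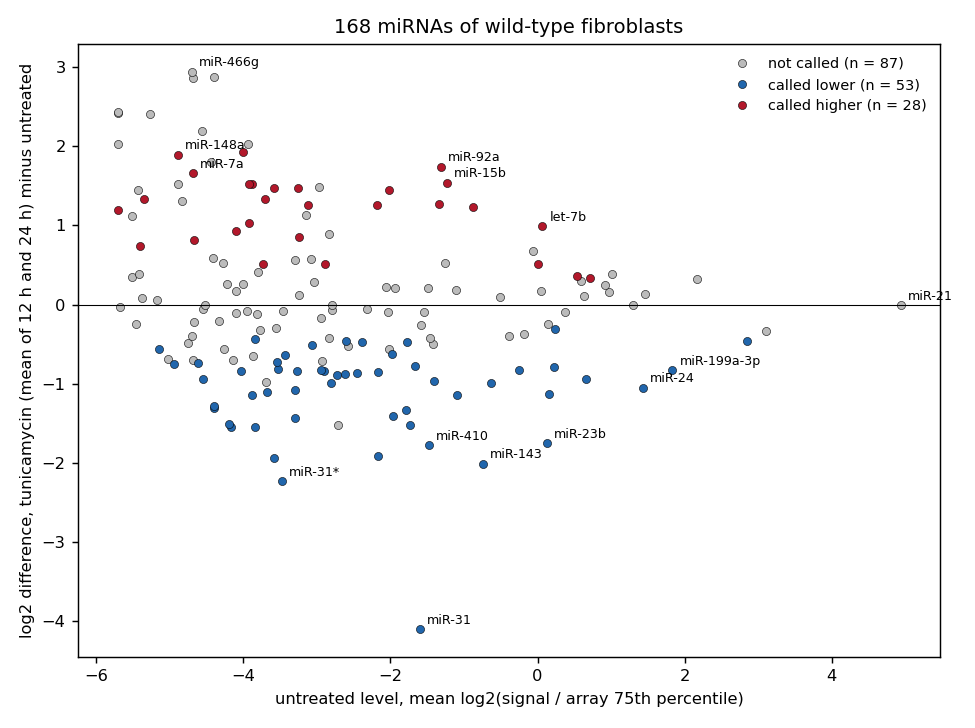
Each point is 1 of the 168 miRNAs, with the untreated level (mean of 2 arrays, log2 of signal over the array's 75th percentile) on the horizontal axis and the log2 difference between tunicamycin (mean of 12 h and 24 h) and untreated cells on the vertical axis. The 28 called higher are red, the 53 called lower are blue and the 87 not called are grey; miR-31 lies lowest at -4.1, miR-21 sits near 0, and the highest grey points are Sfmbt2 cluster members such as miR-466g.

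The calls were also made for each time alone. At 12 h 67 miRNAs were called (38.1% of those tested), 25 higher and 42 lower, and at 24 h 76 (43.2%), 24 higher and 52 lower. The number at 12 h was 38 without untreated replicate 1 and 43 without 12 h replicate 2, and at 24 h it was 50 without the dim replicate 2. The 2 times share their untreated arrays, so their values against untreated cells are not independent. The miRNAs called in opposite directions at the 2 times were miR-1224 and miR-689.

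The largest group of rises was that of the miR-17 clusters, the proliferation-linked miRNAs that Myc and E2F induce and that are cut from the miR-17~92 transcript, its X-linked copy and an intron of Mcm7. Of the 10 measured members 9 were called higher and 0 lower, with a median log2 difference of 1.3 against -0.09 over all 168 miRNAs and 15.9% called higher among all tested. With arrays scaled over all mouse miRNAs 1 of the 10 was called higher, and with the authors' deposited log2 values 0 of 9. The mature strands of miR-92a and miR-19b are the same in the miR-17~92 transcript and its X-linked copy, so their signal cannot be assigned to either. miR-92a gave 41.4 and 39.2% of the reference level on the untreated arrays, 152.2 and 129.9% at 12 h and 133 and 125% at 24 h. All 4 treated arrays lay above both untreated ones, by a log2 difference of 1.74 ± 0.11, or 3.34-fold (SE, adjusted p = 2.29e-05). From the miR-17~92 transcript, miR-20a stood at 26.6 and 23.1% untreated, 71.9 and 72.2% at 12 h and 64.1 and 62% at 24 h, 1.44 ± 0.10 higher (adjusted p = 2.61e-05). The seed partners miR-19a and miR-19b, which differ by U11C, were higher by 1.47 and 1.23, and miR-18a by 0.85.

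Measured miRNAs of the related clusters were higher as well, though probes of sequences as close as miR-20a and miR-20b can share signal. From the X-linked cluster, miR-20b was at 9.26 and 7.57% untreated, 27.1 and 25.1% at 12 h and 22.1 and 19.2% at 24 h, a rise of 1.47 ± 0.17 (adjusted p = 0.000343). From the Mcm7 intron, miR-106b rose by 1.33 ± 0.15 (adjusted p = 0.000261) and miR-25 by 1.27 ± 0.12 (adjusted p = 0.000142). miR-93, the third miRNA of that intron, had 6.93 and 4.97% untreated, 16 and 12% at 12 h and 12.1 and 6.79% at 24 h. Its last array lay below untreated replicate 1, so the groups overlap. It was called over both times (adjusted p = 0.0419) and at 12 h (adjusted p = 0.0281) but not at 24 h (adjusted p = 0.183). The star strand miR-17* was the member not called, at 0.52 ± 0.29 (adjusted p = 0.172), and miR-17 itself was detected on no wild-type array. With the scanner software's total signal miR-25 turned lower, to -0.21, and was no longer called.

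All 4 measured members of the miR-15, miR-16 and miR-322 seed group, which repress cyclins and other cell cycle genes, were called higher, with a median of 1.4. For miR-15b the signal was 42.7 and 42.6% untreated, 127 and 131% at 12 h and 112 and 127% at 24 h. The untreated arrays were nearly equal and every treated array was well above them, by 1.54 ± 0.11 or 2.91-fold (adjusted p = 2.66e-05). miR-16, which shares transcripts with miR-15a and miR-15b, rose from 23.2 and 21.1% to 55.1 and 62.4% at 12 h and 46.9 and 48% at 24 h (1.25 ± 0.11, adjusted p = 0.000101). miR-15a and miR-322 were higher by 1.28 and 1.53. Of all miRNAs tested 15.9% were called higher. None of the 4 was called with arrays scaled over all mouse miRNAs or with the authors' deposited log2 values. The relatives miR-195, miR-497 and miR-503 were detected on no wild-type array.

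Outside those families the largest difference among miRNAs called higher was that of miR-148a, a repressor of Dnmt1 and of other genes with its seed. Its hairpin arm lies at chr6:51269829-51269850 on the minus strand of GRCm38.p6. The arrays read 3.73 and 3.06% untreated, 11.6 and 11% at 12 h and 15.5 and 12.7% at 24 h, so that both times lay above untreated cells without overlap, by 1.89 ± 0.14 (adjusted p = 4.07e-05). miR-152, with the same seed, went the other way: 9.01 and 6.81% untreated, 3.83 and 4.77% at 12 h and 4.05 and 2.4% at 24 h, a log2 difference of -1.1 ± 0.24 (adjusted p = 0.00767).

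miR-7a, a miRNA of endocrine and nerve cells that represses growth factor signalling genes, was at 4.21 and 3.61% untreated, 15.3 and 14.7% at 12 h and 9.92 and 10.3% at 24 h, 1.66 ± 0.13 higher (adjusted p = 4.81e-05). miR-196a, which is transcribed from the Hox clusters and targets Hox mRNAs, rose by 1.53 ± 0.32 (adjusted p = 0.00592), while the other measured Hox cluster miRNA, miR-10a, stood at 0.22 ± 0.11 (adjusted p = 0.151). The rises of miR-148a, miR-7a and miR-196a rest on the probe sums. With the scanner software's total signal their differences were -1.96, -2.74 and -0.57, none of them called, and miR-152 was 0.12 higher.

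miR-206, a miRNA of skeletal muscle, gave 2.32 and 2.59% untreated, 5.3 and 7.2% at 12 h and 4.49 and 8.4% at 24 h, 1.33 ± 0.36 higher (adjusted p = 0.018). These are dim signals, and untreated cells had it detected on 1 array. The 7 muscle markers summed to 2.82% to 3.56% of the reference level on untreated and 4.52% to 8.97% on treated arrays, and miR-1, miR-133a and miR-133b were detected on none.

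The let-7 family, which marks differentiated cells and represses Lin28, Hmga2 and Ras genes, moved less. Of 9 members 4 were called higher and 0 lower, against 15.9% called higher among all tested, and the median was 0.25. The number called was 1 with the software's total signal, and 0 both with arrays scaled over all mouse miRNAs and with the authors' deposited log2 values. let-7b led, with 99.7 and 109% untreated, 204 and 192% at 12 h and 193 and 245% at 24 h (0.99 ± 0.16, adjusted p = 0.00178), all treated arrays being above both untreated ones. let-7c, let-7i and let-7f were called at 0.52, 0.36 and 0.34, and let-7a, at 0.25 ± 0.12, was not (adjusted p = 0.125). Probes for let-7 members that differ by few bases can share signal, so the members are not independent measurements.

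**Figure D2:**
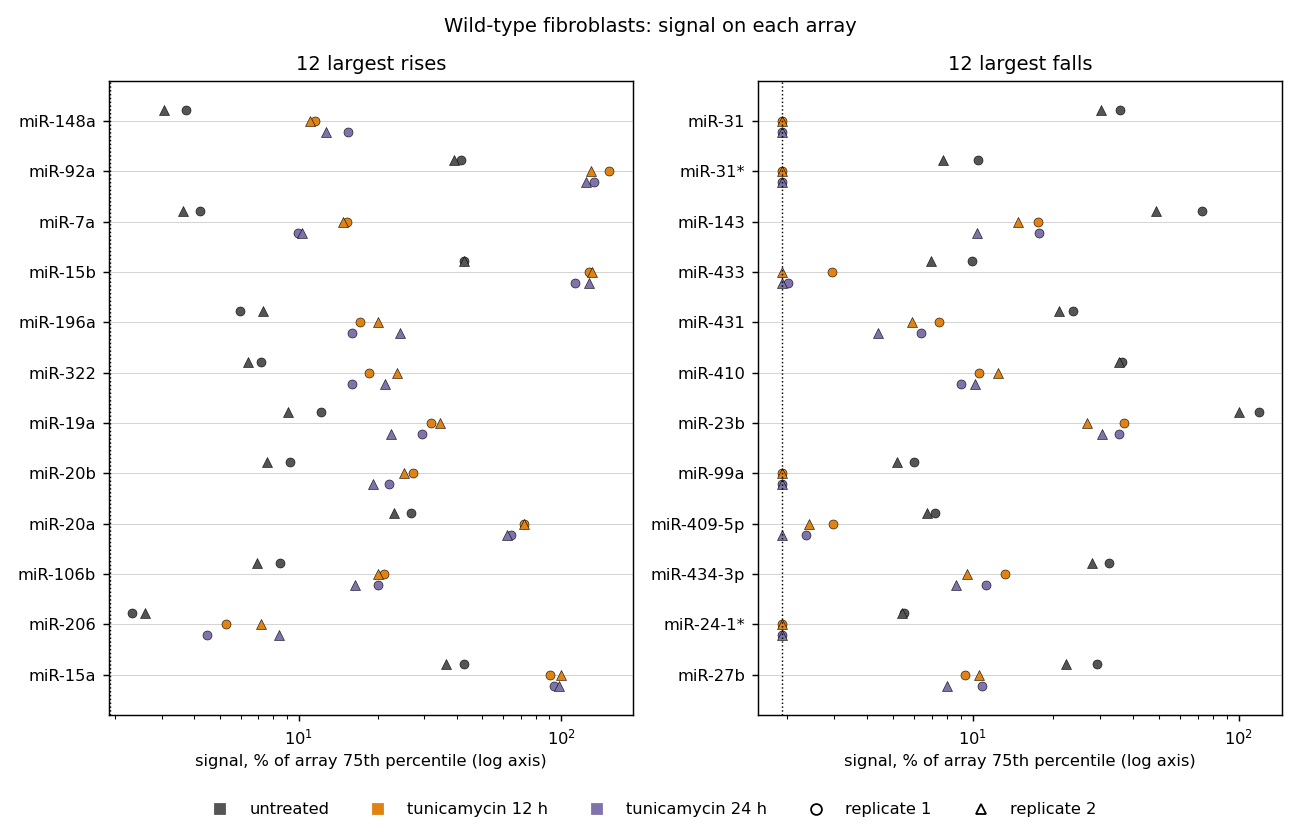
Signal on each of the 6 wild-type arrays, as a percent of the array's 75th percentile on a log axis, for the 12 largest rises (left) and the 12 largest falls (right) among miRNAs called at both times with no overlap of treated and untreated arrays. Grey points are untreated, orange 12 h and purple 24 h, circles are replicate 1 and triangles replicate 2, and signals under the floor of 1.91% are drawn on the dotted line; all 4 treated arrays of miR-31, miR-31*, miR-99a and miR-24-1* lie there.

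Among the falls miR-31 stood apart. It is a miRNA of mesenchymal cells and keratinocytes, and its arm lies at chr4:88910614-88910635 on the minus strand of GRCm38.p6. Its signal was 35.8 and 30.3% of the reference level on the untreated arrays. On the treated arrays the background-subtracted signal was below 0 throughout, -0.317 and -0.413% at 12 h and -0.162 and -0.0519% at 24 h, and the software called it detected on none of them. Such a difference has only a lower bound, in which each treated array counts at the highest of its lowest detected signal, the floor of 1.91% and its own signal for the miRNA. On that reckoning miR-31 was at least 12.2-fold lower over all 4 treated arrays, at least 13-fold at 12 h and at least 11.4-fold at 24 h (fitted log2 difference -4.1 ± 0.17, adjusted p = 2.85e-06). The opposite arm of the same hairpin, miR-31*, had 10.4 and 7.73% untreated, was undetected on all 4 treated arrays and was at least 3.32-fold lower (fitted log2 difference -2.23 ± 0.26, adjusted p = 0.000323). Floored arrays have no spread between them, which can make these standard errors and p-values too small.

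In all, 6 miRNAs were detected on both untreated arrays and on none of the 4 treated ones. Besides both miR-31 strands they were miR-24-1*, miR-301b, miR-210 and miR-28*. miR-24-1* read 5.49 and 5.41% untreated and was at least 2.02-fold lower (adjusted p = 0.000683). miR-210, which HIF-1 induces in hypoxia, was dim already in untreated cells, at 3.35 and 2.37%, and its bound was 1.04-fold (adjusted p = 0.0123). At 24 h alone miR-210 had no bound above 1. Every treated value of miR-24-1* and miR-210 lay under the floor, which can make these p-values too small. miR-301b, at 3.68 and 2.59% untreated, had a bound of 1.14-fold and was not called (adjusted p = 0.151), and miR-28*, at 1.99 and 0.534%, was too dim for a bound above 1. No miRNA was undetected on both untreated arrays and detected on all 4 treated ones. The number of miRNAs among the 168 detected on both arrays of a group was 156 untreated, 139 at 12 h and 109 at 24 h, the last including the dimmest array.

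In the paralogous clusters that hold miR-23, miR-27 and miR-24, the miR-23 and miR-27 pairs had unequal measured differences. The miR-24 star strands of both clusters were called lower. The cluster with miR-23b, miR-27b and miR-24-1 lies on chromosome 13, and that with miR-23a, miR-27a and miR-24-2 on chromosome 8. They are angiogenic and metabolic miRNAs with near-identical mature strands. On the arrays miR-23b gave 119 and 100.0% untreated, 37.1 and 26.9% at 12 h and 35.5 and 30.6% at 24 h, a difference of -1.76 ± 0.16 (adjusted p = 0.000105). All 4 treated arrays were below both untreated arrays, 3.38-fold in the mean. miR-23a in contrast read 272 and 224% untreated, 289.8 and 215% at 12 h and 268 and 217% at 24 h, a difference of -0.01 ± 0.19 (adjusted p = 0.999), with overlapping groups.

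The miR-27 pair, which differs by a single base, also had unequal measured differences. miR-27b had 29.2 and 22.5% untreated, 9.35 and 10.5% at 12 h and 10.8 and 8.01% at 24 h, a log2 difference of -1.42 ± 0.22 (adjusted p = 0.00158). miR-27a had 210.2 and 184% untreated, 191 and 230.1% at 12 h and 212 and 248% at 24 h, a difference of 0.16 ± 0.12 (adjusted p = 0.314). Whether the paralogs differ in response was not tested, and probes of such close sequences can cross-hybridise. The mature miR-24 strand is the same for both hairpins, and it was called at -1.05 ± 0.21 (adjusted p = 0.00428). The star strands are told apart by their sequence. miR-24-1*, from the chromosome 13 cluster, was detected on no treated array, and miR-24-2*, from the chromosome 8 cluster, read 6.02 and 3.73% untreated, 1.81 and 2.08% at 12 h and 1.46 and 1.1% at 24 h (-1.28 ± 0.31, adjusted p = 0.0113). Of the 7 measured strands 5 were called lower and 0 higher, against 30.1% called lower among all tested. The number was 2 with arrays scaled over all mouse miRNAs and 0 of 5 with the authors' deposited log2 values.

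Of the 13 fibroblast and mesenchymal markers 8 were called lower and 0 higher, against 30.1% called lower among all tested, and their median was -0.70. With arrays scaled over all mouse miRNAs 2 of the 13 were called lower, with the software's total signal 5, and with the authors' deposited log2 values 0 of 10. miR-143, a miRNA of smooth muscle and fibroblasts that targets Klf and Elk factors, gave 72.9 and 48.7% untreated, 17.6 and 14.7% at 12 h and 17.8 and 10.3% at 24 h, a log2 difference of -2.01 ± 0.31 (adjusted p = 0.00135) and the largest among miRNAs still detected on every array. Its cluster partner miR-145 was detected on no wild-type array. The 4 measured strands of the miR-199 and miR-214 cluster, which comes from the Dnm3os transcript of mesenchyme, were all called lower with a median of -0.96, and none was called with that scaling or with the deposited values. Among them miR-199a-5p went from 127 and 97.1% to 59.1 and 51.3% at 12 h and 53.5 and 40.6% at 24 h (-1.13 ± 0.20, adjusted p = 0.00223). miR-214 went from 176 and 141% to 106 and 69.9% and 80.4 and 76% (-0.94 ± 0.20, adjusted p = 0.00592). For both, treated and untreated arrays did not overlap.

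Other fibroblast miRNAs differed less or were not called. miR-21, an oncogenic miRNA and the brightest on these arrays, was at 3260.1 and 2862% of the reference level untreated, 2729.6 and 3202% at 12 h and 2898 and 3351% at 24 h, with overlapping groups and a difference of -0.01 ± 0.13 (adjusted p = 0.99). miR-22 was called lower, at -0.47 (adjusted p = 0.0404). miR-125b-5p, at -0.33 ± 0.23 (adjusted p = 0.261), and miR-140, a cartilage miRNA, at 0.29 ± 0.15 (adjusted p = 0.148), were not called. The sum of the 16 fibroblast markers on the array ran from 5163% to 6117% of the reference level on untreated and from 4757% to 5005% on treated arrays.

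The most numerous falls were in the imprinted Dlk1-Dio3 region of chromosome 12, whose miRNAs are expressed from the maternal chromosome, in embryonic and nerve tissue above all. Of 73 such strands on the array 32 were measured, and 24 of these were called lower and 0 higher, against 30.1% called lower among all tested. Their median was -0.84. At 12 h 17 were called lower and at 24 h 24. The number over both times ran from 14 without untreated replicate 1 to 23 without 24 h replicate 1 as arrays were left out in turn, and it was 4 (miR-134, miR-410, miR-431 and miR-433) when arrays were scaled over all mouse miRNAs, 6 with the software's total signal and 0 of 15 with the authors' deposited log2 values. Without 12 h replicate 1, miR-376c was called higher. Along the chromosome the miRNAs lie in 2 groups. In the first, from miR-337 to miR-370, which includes hairpins antisense to Rtl1, 7 of 10 were called lower and the median was -0.95. In the second, the large cluster from miR-379 to miR-410, 17 of 22 were called lower and the median was -0.84.

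In the first group miR-431 had 23.7 and 21% untreated, 7.49 and 5.93% at 12 h and 6.38 and 4.39% at 24 h, a log2 difference of -1.91 ± 0.21 (adjusted p = 0.000261). miR-433, its neighbour and one of the hairpins antisense to Rtl1 with it, went from 9.97 and 6.98% to 2.96 and 1.82% at 12 h and 2.02 and 0.284% at 24 h (-1.95 ± 0.27, adjusted p = 0.000683). Both lay lower on every treated array, and miR-433 was detected on 1 array at each time. miR-127 and both arms of miR-434 were called lower as well, at -1.15, -1.52 and -1.44.

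In the second group miR-410, the last of the row, had 36.5 and 35.5% untreated, 10.6 and 12.5% at 12 h and 9.04 and 10.2% at 24 h, a log2 difference of -1.78 ± 0.11 (adjusted p = 2.29e-05) with replicates close together in every group. miR-409-5p, at -1.54 ± 0.29, was also called (adjusted p = 0.0036), while the opposite arm miR-409-3p, at -0.98 ± 0.37, was not (adjusted p = 0.0642). The member with a positive difference was miR-376c, at 0.58 ± 0.44 (adjusted p = 0.302).

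**Figure D3:**
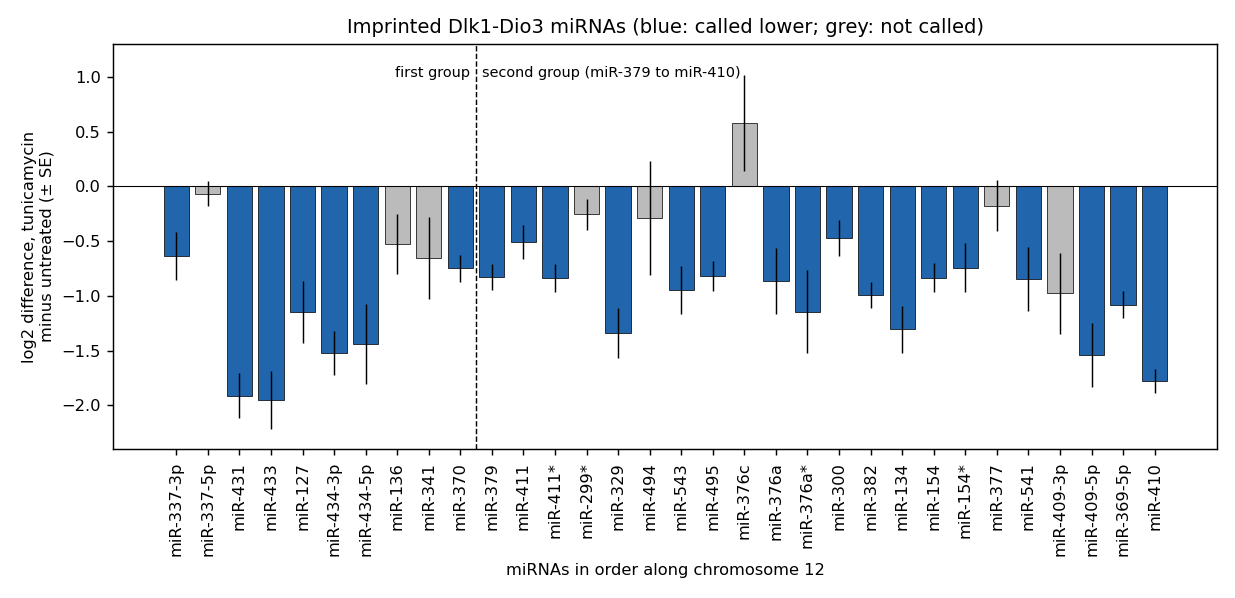
Log2 difference between tunicamycin (mean of 12 h and 24 h) and untreated cells, with its standard error, for the 32 measured strands of the Dlk1-Dio3 region in their order along chromosome 12. The dashed line divides the 2 groups of hairpins, blue bars are called lower and grey bars are not called; 31 of the 32 bars point down and miR-376c points up.

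Among the other families, 0 of 4 measured strands of miR-29, which represses collagen and other matrix genes, were called, against 46.0% of all tested. miR-29a read 292 and 258% untreated, 306 and 313% at 12 h and 296 and 284% at 24 h, with overlapping groups (0.13 ± 0.11, adjusted p = 0.338). Of 6 measured miR-30 strands 2 were called lower, near the 30.1% among all tested, miR-30a* at -0.73 and miR-30a at -0.31, and miR-30c stood at 0.56 ± 0.24 (adjusted p = 0.101). In the p53-induced miR-34 family miR-34a fell from 124 and 109.9% to 68.1 and 60.6% at 12 h and 73.8 and 68.2% at 24 h (-0.79 ± 0.10, adjusted p = 0.000636), whereas miR-34b-5p and miR-34c, which come from another gene, stood at 0.21 and 0.09 and were not called (adjusted p = 0.151 and 0.522).

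Differences of unequal size were measured among seed partners in the families of miR-99 and miR-103, where the difference between partners was not tested. miR-99a read 6.01 and 5.18% untreated, 1.71 and 1.6% at 12 h and 1.71 and 0.805% at 24 h, detected on 1 array at each time. With every treated value under the floor its fitted difference was -1.54 ± 0.10 (adjusted p = 2.52e-05). The floor sets that size, and floored arrays have no spread, which can make the standard error and p-value too small. miR-100, which differs from it by the base given above, went from 27.1 and 23.6% to 17.7 and 16.9% and 15.5 and 15.6% (-0.62 ± 0.12, adjusted p = 0.00321), and miR-99b stood at -0.57 ± 0.24 (adjusted p = 0.0861). Of the miR-103 and miR-107 pair, from introns of the Pank genes, miR-103 fell from 34 and 29.3% to 22.2 and 16.4% and 18.7 and 16.8% (-0.78 ± 0.15, adjusted p = 0.00428). miR-107 read 26.2 and 22.7%, 27.9 and 22.2% and 22.1 and 19.9%, with overlapping groups (-0.09 ± 0.13, adjusted p = 0.567). miR-100 turned higher, by 0.09, with the software's total signal and was no longer called.

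In the smaller families, miR-26b and miR-130b were called higher by 0.51 and 0.51, and their relatives miR-26a and miR-130a stood at -0.43 and -0.24 and were not called (adjusted p = 0.183 and 0.179). miR-130b turned to -0.10 with the software's total signal and -0.12 with the authors' deposited log2 values. None of the 3 measured miR-181 members was called, against 46.0% of all tested. miR-221, a repressor of the cell cycle inhibitor p27, was called at 24 h (-0.70 ± 0.21, adjusted p = 0.0285) but not at 12 h (-0.10 ± 0.21, adjusted p = 0.731). Its values were 77.9 and 75% untreated, 83.4 and 61% at 12 h and 52.2 and 42.5% at 24 h. miR-155, known from immune activation, stood at -0.46 ± 0.10 over both times and was called (adjusted p = 0.00708), but turned to 0.29 with the software's total signal and 0.27 with the authors' deposited log2 values. Of the neural markers miR-129-5p was called lower, at -0.84, and miR-129-3p, at -1.53 ± 0.55, was not (adjusted p = 0.0549). The 8 neural markers summed to 20.5% to 27% of the reference level on untreated and 5.7% to 13.7% on treated arrays, and miR-9 and miR-124 were detected on none.

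**Figure D4:**
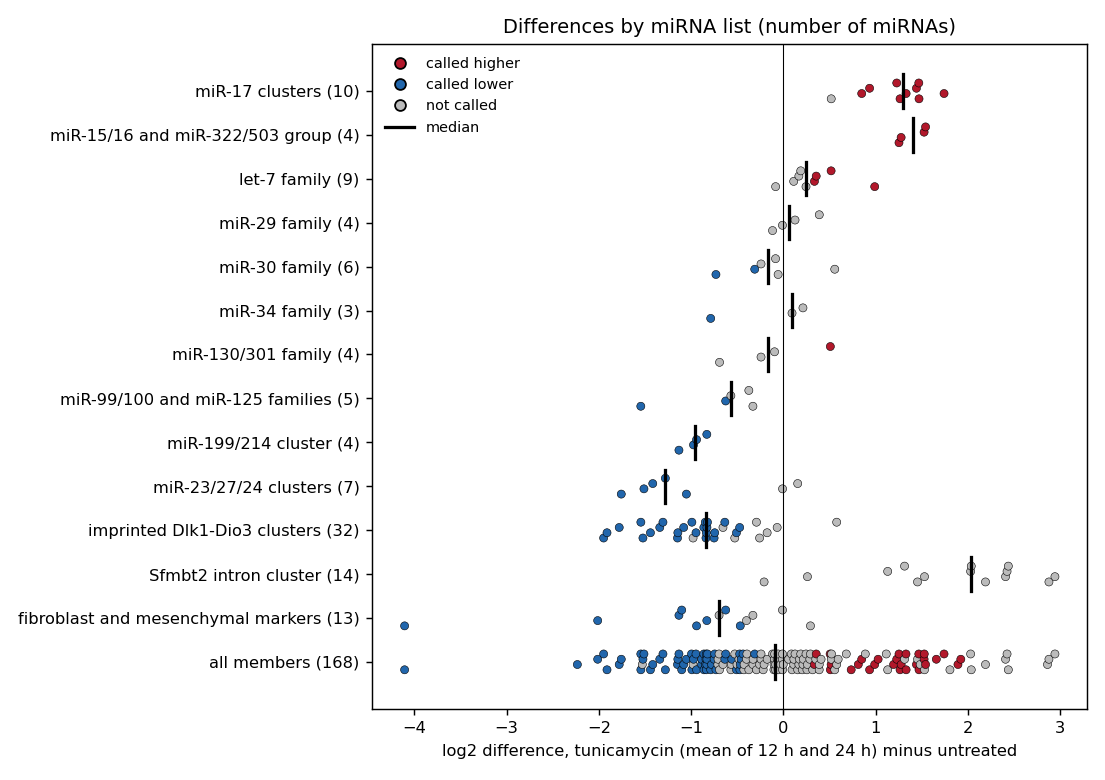
Log2 difference between tunicamycin (mean of 12 h and 24 h) and untreated cells for the measured miRNAs of several lists and for all 168 miRNAs, with the number of miRNAs in brackets. Each point is a miRNA, red called higher, blue called lower and grey not called, and the black bar is the list's median, which runs from -1.28 for the clusters around miR-23 and miR-27 to 2.03 for the Sfmbt2 cluster, none of whose points is called. A miRNA can stand in more than 1 list.

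miRNAs that have been reported as outputs of the unfolded protein response were read from 2 lists. On the list reported to rise, which includes miRNAs linked to PERK, CHOP or XBP1, 0 of 6 measured strands were called higher and 4 were called lower, against 15.9% and 30.1% among all tested, with a median of -1.0. With arrays scaled over all mouse miRNAs 0 of the 6 were called, and with the authors' deposited log2 values 0 of 5. The 4, described above, were miR-199a-5p and miR-214 of the miR-199 and miR-214 cluster, and miR-24 and miR-24-2*, which share a hairpin. They are therefore not independent entries. miR-23a and miR-27a were not called. The other 7 of its 13 entries on the array, among them miR-211, miR-708, miR-346 and miR-30c-2*, did not pass the detection rule and their response was not measured. On the list reported to fall, 4 of 8 measured strands were called higher and 1 lower, and the median was 0.24. With that scaling and with the deposited values 0 were called. The 4 were miR-106b, miR-25, miR-93 and miR-96, and the 1 was miR-34a. miR-96, whose precursor IRE1 has been reported to cut, was dim, with 3.83 and 4.0% untreated, 5.1 and 8.49% at 12 h and 6.49 and 7.94% at 24 h (0.81 ± 0.22, adjusted p = 0.018), and turned lower, to -2.0, with the software's total signal, without a call. The list's median turned to -0.57 with that signal and to -0.56 with the authors' deposited log2 values.

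Between 12 h and 24 h of tunicamycin 2 miRNAs were called, 1.14% of those tested. These 4 arrays share a slide. miR-1224, a spliced-out intronic miRNA made without Drosha, had 135 and 124% untreated, 73 and 57.5% at 12 h and 205 and 245% at 24 h. Both 12 h arrays were below and both 24 h arrays above the untreated pair, and 24 h lay 1.79 ± 0.20 above 12 h (adjusted p = 0.00209). miR-689 behaved in the same way, with 11.3 and 9.99%, 5.91 and 6.89% and 18.4 and 23.2%, and rose by 1.69 ± 0.16 from 12 h to 24 h (adjusted p = 0.00121). The next smallest p-values were those of miR-135a*, at 2.04 ± 0.52, and miR-7a, at -0.57 ± 0.15 (adjusted p = 0.243 for both). Same-numbered treated arrays share a scan date, and with the replicate number as a block 4 miRNAs were called, 3 higher and 1 lower: miR-1224, miR-689, miR-135a* and, lower at 24 h, miR-690. With the 6 wild-type arrays alone 0 were called by limma, with 11 at an unadjusted p under 0.05.

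The highest differences in the whole set carried no call. They belong to the Sfmbt2 intron cluster, a rodent repeat array of miR-466, miR-467 and miR-669 hairpins, of which 14 strands were measured and 0 called. miR-466g had 7.76 and 1.65% untreated, 16.3 and 102% at 12 h and 6.33 and 73.9% at 24 h. Its signal was high on replicate 2 of both treated groups and not on replicate 1 at 24 h, and the difference of 2.94 ± 1.32 was not called (adjusted p = 0.103). The other strands also differed between replicates of the treated groups. The median signal of the 14 strands was 4.82% and 2.78% untreated, 6.16% and 35.9% at 12 h and 4.45% and 27% at 24 h, in the order of replicates. Without 24 h replicate 1 the median log2 difference of the 14 was 2.78, against 2.03 with all arrays. With the replicate block 4 of the 14 were called higher (miR-467b*, miR-467g, miR-669a and miR-669c), against 36 of all 168 miRNAs. With the scan date as a random block 6 were, miR-466g among them, against 34 of the 168. With the untreated replicate numbers crossed, a pairing added after seeing the data, 11 were, against 41 of the 168. Sequences of these miRNAs are repetitive and near-identical, so their probes can share signal. The 6 miRNAs that were undetected on both untreated arrays and detected on 3 of the 4 treated ones included miR-467b*, miR-467e* and miR-467g of this cluster. The other three, named after their values were seen, were let-7d*, miR-218 and miR-877*.

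**Figure D5:**
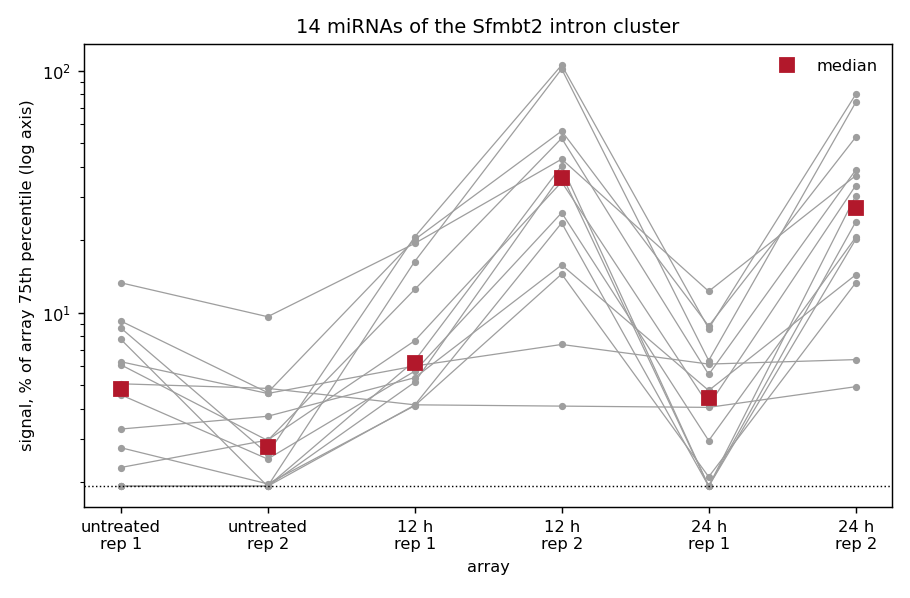
Signal of the 14 measured miRNAs of the Sfmbt2 intron cluster on each wild-type array, as a percent of the array's 75th percentile on a log axis. Grey lines join the values of 1 miRNA, red squares are the medians and the dotted line is the floor of 1.91%; the medians of 35.9% and 27% on replicate 2 at 12 h and 24 h stand above those of 2.78% to 6.16% on the other 4 arrays.

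The response of these miRNAs was set beside that of fibroblasts lacking ATF6b, which lay on the same slides. The difference in response between the genotypes, taken over both times, was called for 52 of the 176 miRNAs tested, or 29.5% (26.7% higher, 2.84% lower in knockout than in wild-type cells). Among the 168 it was called for 47, for 42 of them towards a higher value in the knockout and for 5 towards a lower value. The median of this difference over the 168 miRNAs was 0.37, so the set as a whole lay towards higher values in the knockout. Replicate 2 of the treated knockout cells was dim, with a reference signal of 246 at 12 h and 208 at 24 h. What part the shared shift has in the calls was not tested. Of the 6 largest called differences among the 168, 5 were of miRNAs called lower in wild type, and miR-29b* was not called there. The wild-type response is part of each such difference, so the wild-type calls and this ranking are not independent. miR-31, at a fitted -4.1 in wild type, stood at -0.09 in knockout cells, a difference of 4.01 ± 0.24 (adjusted p = 1.15e-05). miR-143 stood at -2.01 and -0.05 (adjusted p of the difference = 0.0139), and miR-23b at -1.76 and 0.16 (adjusted p of the difference = 0.000921). The 5 that went the other way were miR-322, miR-15b, miR-16, miR-30c and miR-218, so that 3 of the 4 rises in the miR-15 group were smaller without ATF6b. For miR-15b the response was 1.54 in wild type and 0.75 in knockout cells, a difference of -0.79 ± 0.15 (adjusted p = 0.00793). miR-92a was higher by 1.74 in wild type and 1.54 in knockout cells, a difference of -0.21 ± 0.16 (adjusted p = 0.344).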

How the data were processed

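Mature miRNAs were measured on single-colour Agilent arrays, 6 of wild-type and 6 of ATF6b-deficient fibroblasts, with Cy3-labelled total RNA per the labels' protocols. The authors deposited scanner tables of linear spot intensity, made per the submitters' processing notes in Agilent Feature Extraction 10.7.1.1, and a table of log2 values. The background-subtracted intensity was used. Set against the scanner tables, the deposited log2 values are, to within 1.18e-06, the unscaled total gene signals that the scanner software gives. For 590 of 1893 detected values this total was over 1.5 times the summed probe totals, so these values served as an alternative.

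Spots of a probe were averaged without outlier-flagged and control spots, probes were summed per miRNA, and arrays were scaled to the 75th percentile of the 93 miRNAs that all 12 arrays detected. Values were floored at 0.0191 of that percentile (log2 -5.71), the median over arrays of the lowest detected signal, and log2 was taken. With limma 3.58.1 (R 4.3.3), a linear model with moderated variances (residual degrees of freedom 6, prior 1.65) was fitted to all 12 arrays in 6 groups over 176 miRNAs, using Benjamini-Hochberg adjustment and a threshold of 0.05. On simulated data for the comparison over both times, with 60 of the 176 miRNAs changed, the fit called 73.3% of changes of 1 and 96.7% of changes of 2 on the log2 scale in the right direction, and 3.77% of its calls were of unchanged miRNAs. The simulated arrays were drawn independently, with no floor and no deviation shared within a scan date. In the data the estimated correlation within scan dates was 0.504, so these simulated rates need not hold here. With 2 arrays a group, their number limits the precision.

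The members and miRNA lists were chosen with earlier results of these data known. Named miRNAs are the 12 largest rises and 12 largest falls called at both times without overlap of arrays, those lost from or gained on all treated arrays, up to 4 of each list, the 4 smallest p-values between times and the brightest. Names are those of the array, and older names were matched to current arms for sequences. Deviations of same-numbered arrays correlated at 0.88 between 12 h and 24 h, and at -0.27 and -0.13 between untreated and treated groups, so same-numbered treated arrays, which share a scan date, deviated together. Alternatives covered scaling, probe summary, floor, filter, samples in the fit, scan and replicate blocks and left-out arrays. A planned normexp background correction was not used, since its estimate came to -488 on 1 wild-type array (12 h, replicate 1) against 3.59 to 37.7 on the others, and the mean signal it was planned on was not used here.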

Additional observations from a re-analysis of the deposited data

Results flagged for a closer look

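For 2 miRNAs the response differed between 12 h and 24 h in wild-type cells by a fitted test of the difference itself: miR-1224 by 1.79 and miR-689 by 1.69 on the log2 scale, both lower than untreated cells at 12 h and higher at 24 h. The response over both times differed between genotypes most for 6 miRNAs, given as the knockout minus the wild-type response: 4.01 for miR-31, 2.28 for miR-31*, 2.03 for miR-29b*, 1.97 for miR-143, 1.92 for miR-24-1* and 1.91 for miR-23b (limma adjusted p from 1.15e-05 to 0.0139). miR-29b* differs from the other five in that it was not called in wild type (-0.12) and stood at 1.91 in knockout cells. The sizes for miR-31, miR-31* and miR-24-1* are set by the floor. What lies behind these differences was not tested. With groups of 2 arrays no array could be judged an outlier of its group.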

How the results depend on the processing

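The count of 81 called miRNAs over both times, 67 at 12 h, 76 at 24 h and 2 between times depended on scaling and probe summary. Scaling over all mouse miRNAs gave 15, 3, 1 and 0. That percentile lies at a signal of 11.8 to 23.8 on wild-type arrays, and the 95th percentile of miRNAs never detected at 4.96 to 8.64. miR-31 was called in each of the first 3 of these. The software's total signal gave 31, 26 and 25. The deposited log2 values gave 0, 0, 1 (miR-410) and 0 by limma over 103 miRNAs, with 27, 25, 15 and 2 at an unadjusted p under 0.05. Without a filter the count was 53 over both times and 43 at 12 h. Quantile normalization gave 49 at 24 h and 1 between times (miR-689), and the median of all members moved from -0.09 to -0.20 over both times. With the brightest probe of each miRNA, an alternative chosen after seeing the data, 43 were called higher and 40 lower over both times, against 28 and 53, and the median was 0.10. With miRNAs detected on all 6 wild-type arrays the split was 28 and 30.

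With the replicate block 101 were called over both times, 89 at 12 h, 96 at 24 h and 4 between times. Crossing the untreated numbers, added after seeing the data, gave 94, 86, 86 and 2. With the scan date as a random block 8 were called between times, and with the wild-type arrays alone 0. Leaving out each array in turn gave 54 to 89 over both times, 38 to 63 at 12 h, 50 to 76 at 24 h and 2 between times throughout.

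Of 82 named results, 9 turned with the total signal, 17 lost the call, 1 gained it and 55 stayed the same. The deposited values covered 57 named results, of which 9 turned, 31 lost the call and 17 stayed the same. Values that turned are given for the total signal first and the deposited values second. In that order the differences were -1.96 and -1.98 for miR-148a, -2.74 and -2.76 for miR-7a, -0.57 and -0.59 for miR-196a, 0.094 and 0.074 for miR-100, -0.10 and -0.12 for miR-130b, 0.29 and 0.27 for miR-155, -0.21 and -0.23 for miR-25, and -2.0 and -2.02 for miR-96. miR-152 turned to 0.12 with the total signal and miR-689, between times, to -0.043 with the deposited values. The cause was not tested. Over all other settings, 1203 comparisons of a named result with its main value kept direction and side of the threshold, 125 lost the call and 41 gained it. Normexp background correction was planned and not run.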
